A study of Homo sapiens with 10 samples.

Results

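Chemokine receptors are 7-transmembrane receptors that couple to inhibitory G proteins and steer leukocytes along gradients of small secreted proteins, the chemokines. Receptors for inflammatory chemokines bring monocytes and neutrophils into inflamed tissue, whereas homeostatic receptors such as CXCR4 and CCR7 hold cells in bone marrow or guide them to lymph nodes. Monocytes are classically divided by CCR2 and CX3CR1, and the pair CXCR1 and CXCR2 is typical of neutrophils.

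The members described here were 9 receptor genes, CCR1, CCR2, CCR7, CXCR1, CXCR2, CXCR3, CXCR4, CX3CR1 and CCRL2, chosen by symbol from the 19590 genes of the normalised count table. RNA had been sequenced from MV4-11, an established human acute myeloid leukaemia (AML) cell line, in 4 control and 4 IRF8 knockout (KO) libraries. Control cells were infected with a lentiviral control vector. Knockout cells carried a lentiviral CRISPR construct against IRF8, a transcription factor of monocyte and dendritic cell development, and were clones obtained by limiting dilution. All cells therefore carried a vector and stood under puromycin selection, and both groups were grown without further treatment. The sources do not tell which clone gave which knockout library, and nothing says that replicates were separate cultures, so that p-values measure only the spread between these libraries.

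By the reads recovered from the table, control libraries held 48762519 to 65519047 reads on genes, and knockout libraries 39560072 to 54048461. A mean of at least 10 normalised counts over the 8 libraries was reached by 13110 genes, all 9 receptors among them. These genes were compared with limma on log2(normalised count + 1), a scale that understates the change of low genes, and p-values were adjusted by the Benjamini-Hochberg method over all 13110. A gene with a mean below 10 in 1 group can pass this filter through the other. Among the genes named below and called without the block, CCR7, ACKR2 and CD36 passed through the controls. CXCL6, FPR1, FPR2, C5AR2 and KLF1 passed through the knockouts. Libraries with the same replicate number deviated together from their group means, and among the controls replicates 1 and 3 stood apart from replicates 2 and 4. The IRF8 transcript itself measured 36891, 15192, 43016 and 22535 normalised counts in control replicates 1 to 4, and 6377, 2401, 12903 and 7819.7 in the knockouts. It was lower in every knockout library than in any control, with a log2 fold change of -2.11 (SE 0.51, limma adjusted p = 0.0222), although the call was lost without control replicate 1, control replicate 3 or knockout replicate 1 (adjusted p up to 0.0586). These values are RNA and do not measure the protein. The paper reports that Western blots found no IRF8 protein in the knockout clones and that the IRF8 ChIP-Seq peaks were absent in knockout cells.

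Of the 9 receptors, 2 were lower in the knockout at an adjusted p below 0.05 (CCR2 and CCR7) and 0 were higher, where 9.56% of all tested genes were lower and 8.65% higher. The same 2 receptors were lower without overlap between the groups and 0 were higher without overlap, beside 13.0% and 12.3% of all tested genes. When replicate number entered the fit as a block, 5 receptors were lower (CCR1, CXCR3 and CX3CR1 in addition) and 0 were higher, beside 14.6% and 14.2% of all genes. At an unadjusted p below 0.05 limma also found 0 higher, as did edgeR and DESeq2 at an adjusted p below 0.05. By their correlations the replicate numbers cannot be told apart from 2 sets of libraries (replicates 1 and 3, replicates 2 and 4), so in this fit the 3 added calls rest on taking the numbers as pairs. Without a block, DESeq2 also called CCR1 and CXCR3 (adjusted p = 0.0130 and 0.00669) but not CX3CR1 (0.127). The edgeR fit called none of the 3 (adjusted p of 0.0549, 0.0695 and 0.206). The fold change was below 0 for 7 of the 9, with a median of -0.90 on the log2 scale against -0.00094 over all tested genes. In bulk RNA, fewer cells with a receptor and less of its RNA per cell cannot be told apart.

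**Figure D1:**
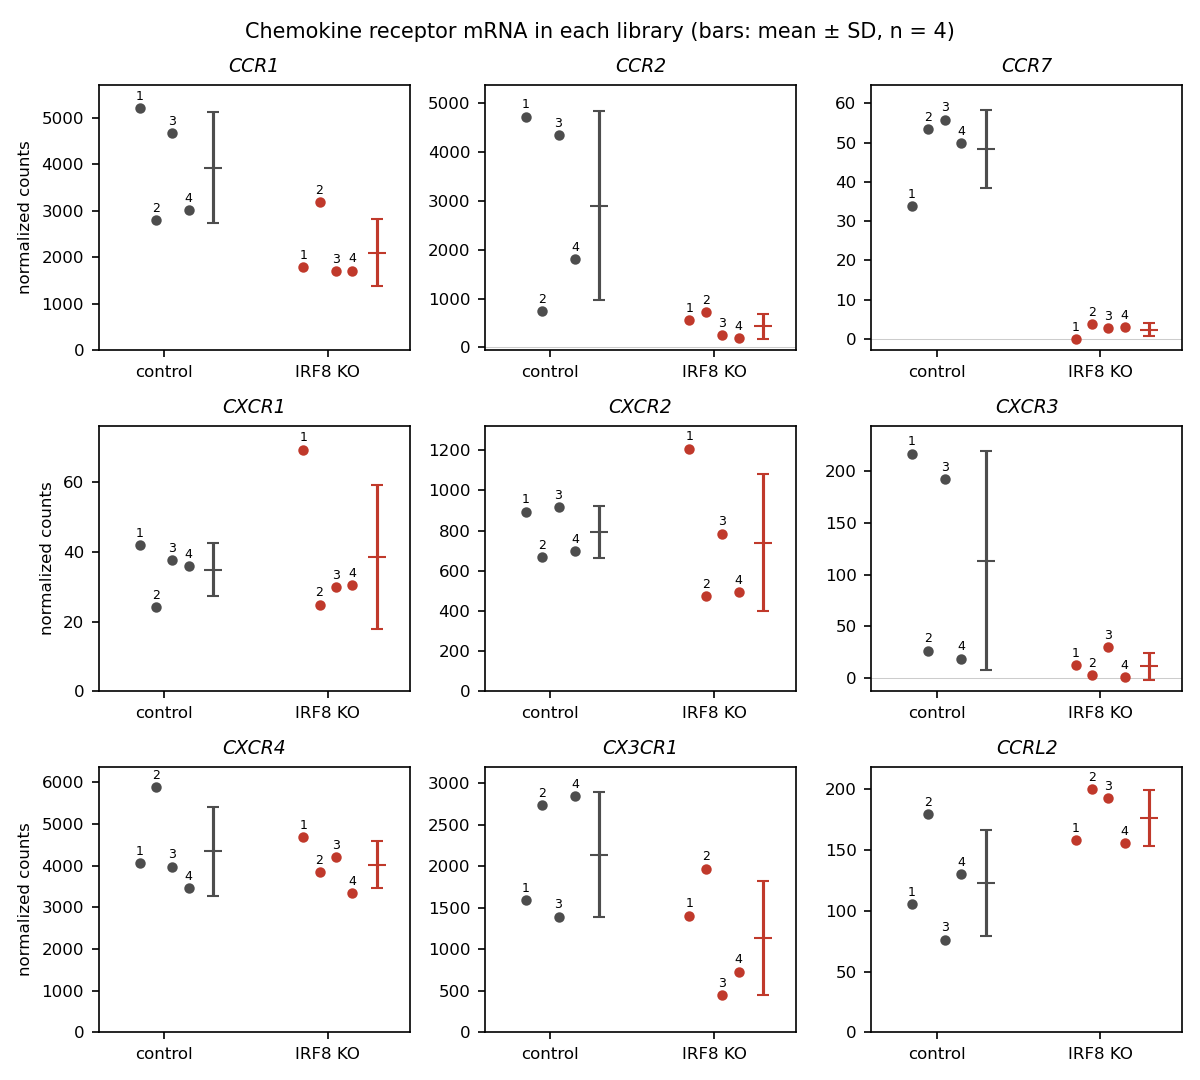
Normalised counts of the 9 receptors in the 4 control and 4 IRF8 knockout libraries (linear axes, 1 panel per gene), with points numbered by replicate and bars for the mean ± SD. Only CCR2 and CCR7 have knockout points that all lie under the control points, and control points 1 and 3 lie above 2 and 4 for CCR1, CCR2, CXCR1, CXCR2 and CXCR3.

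**Figure D2:**
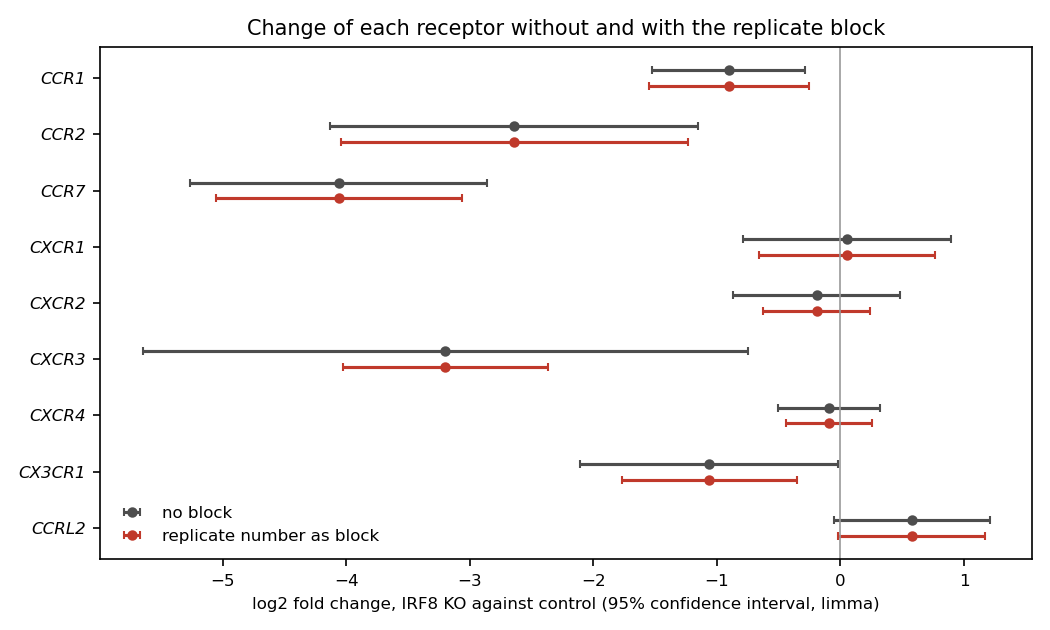
Log2 fold change of each receptor (IRF8 knockout minus control) with its 95% confidence interval, with and without a block for replicate number. The block leaves the estimates in place and narrows the interval of CXCR3 from -5.65 to -0.75 down to -4.03 to -2.37.

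The 250 bases before the transcript start are shown for the 4 receptors that were lower in the blocked comparison and have an entry in the RefSeq promoter table of GRCh38.p14, which matched 8 of the 9 receptors (all but CCR7). Capitals mark GGAA or its reverse complement TTCC, the core bound by ETS factors such as PU.1, with which IRF8 pairs on DNA. CCR1 has its window at chr3:46208314-46208563 (minus strand), CCR2 at chr3:46353861-46354110 (plus strand), CXCR3 at chrX:71618512-71618761 (minus strand), and CX3CR1, of its several starts, at chr3:39281736-39281985 (minus strand).
CCR1: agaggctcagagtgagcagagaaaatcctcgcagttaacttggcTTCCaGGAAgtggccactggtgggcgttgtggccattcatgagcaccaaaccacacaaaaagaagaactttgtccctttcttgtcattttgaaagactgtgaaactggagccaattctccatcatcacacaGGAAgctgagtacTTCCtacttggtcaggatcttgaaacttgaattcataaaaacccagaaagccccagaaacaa
CCR2: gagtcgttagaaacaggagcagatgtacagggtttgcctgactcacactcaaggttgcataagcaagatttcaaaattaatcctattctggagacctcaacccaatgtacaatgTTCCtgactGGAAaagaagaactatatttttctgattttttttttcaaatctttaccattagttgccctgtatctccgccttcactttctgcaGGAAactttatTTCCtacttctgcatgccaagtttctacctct
CXCR3: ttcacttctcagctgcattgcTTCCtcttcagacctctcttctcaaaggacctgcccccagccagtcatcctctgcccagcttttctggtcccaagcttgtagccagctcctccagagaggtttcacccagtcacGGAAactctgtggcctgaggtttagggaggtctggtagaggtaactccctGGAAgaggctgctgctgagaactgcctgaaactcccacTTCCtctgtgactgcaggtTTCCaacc
CX3CR1: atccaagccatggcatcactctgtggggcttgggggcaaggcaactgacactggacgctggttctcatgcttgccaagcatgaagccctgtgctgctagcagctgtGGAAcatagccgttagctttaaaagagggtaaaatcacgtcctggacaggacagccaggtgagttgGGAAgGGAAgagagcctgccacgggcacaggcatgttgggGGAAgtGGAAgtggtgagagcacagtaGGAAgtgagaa
The windows of CCR1 and CCR2 hold 4 cores each, that of CXCR3 holds 5 and the printed one of CX3CR1 holds 6. Windows at the other CX3CR1 starts hold 2 and 1. At least 1 core was present in 92.7% of the 35116 windows of this length, with a median of 3, so the core is common. Composite motifs of IRF factors were searched as exact letters on both strands. The ETS-IRF composite element (GGAA and GAAA with 2 free bases between them) was present in 2.41% of all windows, the interferon-stimulated response element (GAAA and GAAA, 2 free bases) in 3.02% and the IRF-ETS composite sequence (GAAA and GGAA, 3 free bases) in 1.83%, and none of the 3 motifs occurred in the windows printed above or in those of CXCR4 and CCRL2. The IRF-ETS sequence matched in CXCR1 (GAAATAAGGAA, 46 bases before the start on the opposite strand) and in CXCR2 (GAAAGAAGGAA, 104 bases before the start). Neither of these receptors passed the test between the groups. Among the other chemokine receptors, the interferon-stimulated response element matched in CCR6 and XCR1. CCR6, which was lower in the knockout, has several starts. The match lay in window 1 (GAAATTGAAA, 124 bases before that start), and windows 2 and 3 held no match. In XCR1, which was listed at 0 throughout, the match (GAAACTGAAA) was on the opposite strand. The shares above are per window, so a gene with several windows has more chances of a match. A match of letters is a description of the window and not a binding site.

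CCR2, the receptor for CCL2 that releases classical monocytes from bone marrow, was lower in the knockout. It measured 4729, 741, 4348 and 1802 normalised counts in control replicates 1 to 4, and 555, 725, 248 and 181 in knockout replicates 1 to 4. Every knockout library lay under every control, but control replicate 2 exceeded the highest knockout library, also replicate 2, only narrowly. The means were 2905 ± 1942 (SD, n = 4) and 427 ± 257 (SD, n = 4), so that the knockout held 14.7% of the control mean. The log2 fold change was -2.64 (SE 0.66, 95% confidence interval -4.13 to -1.15, limma adjusted p = 0.0242), and the exact two-sided permutation test gave p = 0.0286, the smallest it can give for 4 against 4. Within replicate numbers, the log2 difference was -3.09, -0.03, -4.13 and -3.31, so the pair of replicate 2 barely differed. The call was lost when control replicate 1, control replicate 3, knockout replicate 3 or knockout replicate 4 was left out (adjusted p 0.0611, 0.0616, 0.0694 and 0.0671), and it was also lost among replicates 2 and 4 alone (log2 fold change -1.67, adjusted p = 0.171).

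CCR1, which binds CCL3, CCL5 and CCL23 on monocytes, showed the same arrangement of controls. It measured 5198, 2803, 4665 and 3019 normalised counts in the controls, and 1789, 3191, 1709 and 1715 in the knockouts. Knockout replicate 2 stood above control replicates 2 and 4, and the other knockout libraries lay below every control. The means were 3921 ± 1189.8 (SD, n = 4) and 2101 ± 728 (SD, n = 4), and the log2 fold change of -0.90 (SE 0.27) narrowly missed the threshold (limma adjusted p = 0.0513). With the replicate block the adjusted p was 0.0476, and without knockout replicate 2 or control replicate 2 it was 0.0146 or 0.0406. The paired log2 differences were -1.54, 0.19, -1.45 and -0.82, lower in 3 of 4 pairs.

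CX3CR1, the receptor for the membrane-bound chemokine CX3CL1 on patrolling monocytes, measured 1591, 2737, 1395 and 2850.0 normalised counts in the controls. In the knockouts it measured 1405, 1973, 451 and 729.9. Here control replicates 2 and 4 were the high ones, opposite to CCR1 and CCR2, and the groups overlapped. The log2 fold change was -1.06 (SE 0.46, limma adjusted p = 0.152), and the exact two-sided permutation test gave p = 0.143. With the replicate block the adjusted p was 0.0374, the gene being lower in 4 of 4 pairs by log2 differences of -0.18, -0.47, -1.63 and -1.96.
The ratio of CCR2 to CX3CR1 within a library was 2.97, 0.271, 3.12 and 0.632 in the controls and 0.395, 0.367, 0.550 and 0.248 in the knockouts. The ratios of the knockouts lay in the range of control replicates 2 and 4 or just under it, and under control replicates 1 and 3. This ratio was chosen after the values were seen.

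**Figure D3:**
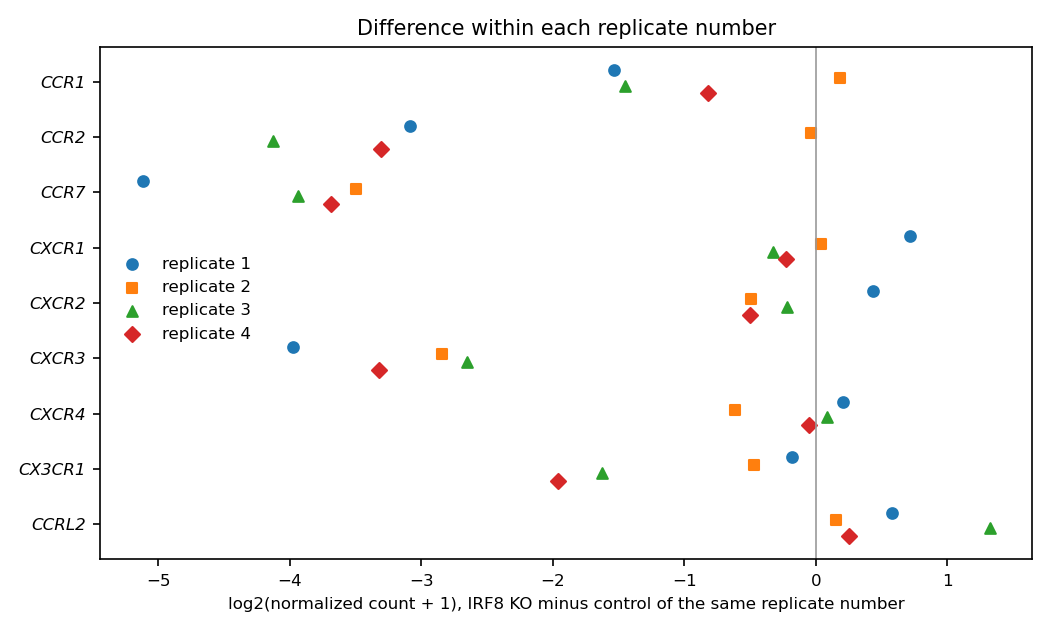
Log2 difference (IRF8 knockout minus control, log2(normalised count + 1)) within each replicate number for the 9 receptors. CCR7, CXCR3, CX3CR1 and CCR2 are below 0 in 4 of 4 pairs, whereas CCRL2 is above 0 in 4 of 4, and the pair of replicate 2 is near 0 for CCR2.

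CCR1, CCR2 and CCRL2 lie on chromosome 3 in a group of receptor genes that arose by duplication. Their fold changes differed in sign and size. CCR3, the eotaxin receptor of eosinophils, which lies between CCR1 and CCR2, was low throughout, at 29.0 to 53.7 in the controls and 6.39 to 70.7 in the knockouts (log2 fold change -0.55, adjusted p = 0.616).
CCRL2 over CCR2 within a library was 0.0223, 0.242, 0.0175 and 0.0721 in the controls and 0.284, 0.276, 0.776 and 0.859 in the knockouts. The groups of this ratio did not overlap. It was chosen after its values were seen and was not tested. Reads of closely related receptors such as CXCR1 and CXCR2 could be shared between them in counting. The flanking genes SACM1L, LZTFL1 and FYCO1 had log2 fold changes of 0.19, -0.22 and 0.49 with adjusted p-values of 0.230, 0.329 and 0.176, of which FYCO1 passed with the block (0.0436). On the other flank LTF, LRRC2 and ALS2CL had log2 fold changes of -2.05, -3.28 and -0.35 with adjusted p-values of 0.254, 0.159 and 0.775 by limma, and LTF and LRRC2 passed with the block (0.0328 and 0.0420). LTF and LRRC2 were low or absent in most libraries, at most 56.1 and 105 normalised counts. Over the 705 tested genes of chromosome 3 the median was 0.06.

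**Figure D4:**
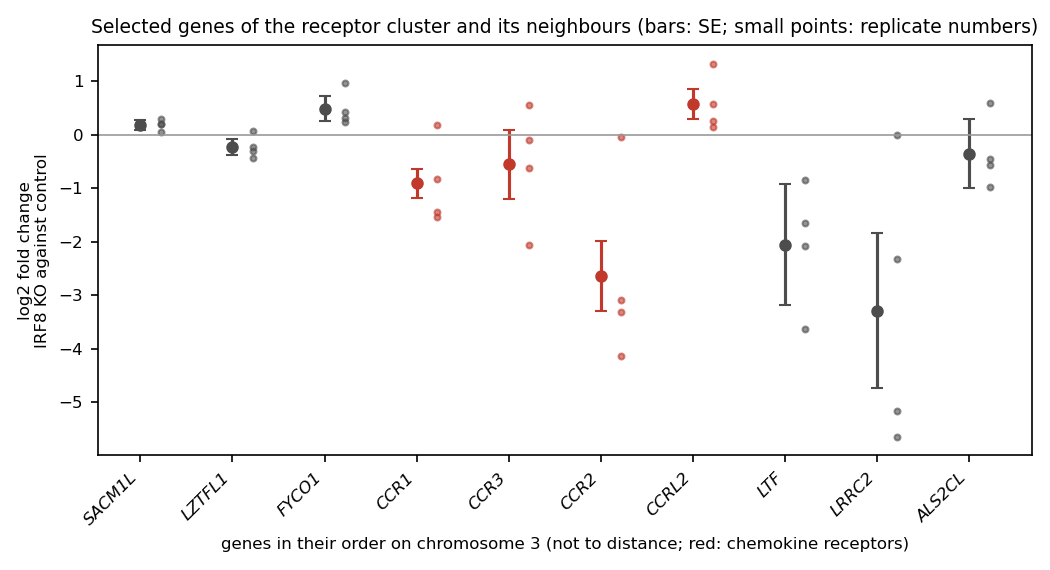
Log2 fold change (IRF8 knockout minus control, bars for the SE) of selected genes of the receptor cluster on chromosome 3 and its neighbours, in chromosomal order and not to distance, with a point for each replicate pair. CCR1 and CCR2 are below 0 at -0.90 and -2.64, while CCRL2 in the same cluster is above 0 at 0.58.

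CCRL2, an atypical receptor that binds chemerin without signaling through G proteins, measured 105, 179, 76.2 and 129.9 normalised counts in the controls and 158, 199.8, 192 and 155 in the knockouts. It was higher in the knockout in 4 of 4 pairs, but control replicate 2 overlapped with the knockouts. The log2 fold change of 0.58 (SE 0.28, 95% confidence interval -0.05 to 1.21) did not pass the test, with a limma adjusted p of 0.193, or 0.131 with the block.

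CCR7, the receptor for CCL19 and CCL21 that guides maturing dendritic cells and lymphocytes to lymph nodes, was lower in every knockout library and was called under every alternative in which it was tested. It measured 33.8, 53.5, 55.8 and 49.9 normalised counts in the controls, resting on 42, 62, 52 and 53 reads. In the knockouts it measured 0, 3.82, 2.71 and 2.95, resting on 0, 4, 2 and 3 reads. The control mean was 48.3 ± 9.9 (SD, n = 4) and the knockout mean 2.37 ± 1.7 (SD, n = 4), which is 4.91% of the control. The log2 fold change was -4.06 (SE 0.53, limma adjusted p = 0.00123) and ranged from -4.44 to -2.86 with an added count of 0.5 or 5, and the exact two-sided permutation test gave p = 0.0286. It was a low transcript in the controls too, with under 100 reads per library, and it passed the filter only through the controls.

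CXCR3, the receptor for the interferon-induced chemokines CXCL9, CXCL10 and CXCL11, differed within each pair while its groups overlapped. It measured 216, 26.7, 192 and 18.8 normalised counts in the controls and 12.8, 2.87, 29.8 and 0.984 in the knockouts. Control replicates 1 and 3 were high, replicates 2 and 4 were low, and knockout replicate 3 lay above both of the low controls. Without the block the log2 fold change of -3.20 (SE 1.08) did not pass the test (limma adjusted p = 0.0741, exact two-sided permutation p = 0.0857). With the block the SE fell to 0.35 and the adjusted p to 9.67e-04, with paired log2 differences of -3.98, -2.84, -2.65 and -3.32. The knockout libraries held 12, 3, 22 and 1 reads, so that these differences carry a large counting error.
Within replicates 1 and 3 the log2 fold change was -3.31 (adjusted p = 0.0161), and within replicates 2 and 4 it was -3.08 (adjusted p = 0.0285), both limma with 2 libraries a group, a split chosen after seeing the data.

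CXCR1 and CXCR2, the receptors for CXCL8 and related neutrophil chemokines, did not pass the test. CXCR2 measured 894, 668, 916 and 699 normalised counts in the controls and 1207, 475, 785 and 495 in the knockouts. The knockouts spread both above and below the controls, and the log2 fold change was -0.19 (95% confidence interval -0.87 to 0.48, limma adjusted p = 0.724). CXCR1 was low, at 41.8, 24.2, 37.6 and 35.8 in the controls and 69.3, 24.9, 29.8 and 30.5 in the knockouts. Its log2 fold change was 0.05 (95% confidence interval -0.79 to 0.89, adjusted p = 0.947), and the sign turned without knockout replicate 1 (-0.26) or control replicate 2 (-0.11).

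CXCR4, the receptor for CXCL12 that retains blood-forming and leukaemic cells in bone marrow, measured 4055, 5887, 3977 and 3454 normalised counts in the controls and 4676, 3849, 4212 and 3339.8 in the knockouts. The groups overlapped over most of their range. The log2 fold change was -0.09 (SE 0.18, adjusted p = 0.790 by limma), and its 95% confidence interval of -0.51 to 0.32 was the narrowest of the 9 receptors.

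Of the 14 other chemokine receptors in the table, 5 passed the filter, of which 2 were lower and 0 higher, beside 9.56% and 8.65% of all tested genes. CCR6, the CCL20 receptor, measured 2204, 743, 2233 and 1039 normalised counts in the controls and 256, 774, 425 and 463 in the knockouts (log2 fold change -1.65, limma adjusted p = 0.0315). The groups overlapped through knockout replicate 2, and the call was lost without control replicate 1 or 3 or knockout replicate 1, 3 or 4 (adjusted p 0.0709 to 0.0803). ACKR2, a scavenger of inflammatory CC chemokines, measured 76.4, 92.3, 32.2 and 129 in the controls and 2.13, 10.5, 4.06 and 19.7 in the knockouts, with no overlap (log2 fold change -3.25, adjusted p = 0.00951). CCR10, a receptor of skin-homing lymphocytes, had a log2 fold change of -1.48 that passed with the block (adjusted p = 0.0989 without and 0.0447 with it). Among the 9 under the filter, the CXCL12 scavenger ACKR3 measured 16.1, 5.18, 15.0 and 14.1 in the controls and 1.07, 0, 0 and 0 in the knockouts. ACKR4 and CCR9 went the other way without overlap. ACKR4 measured 3.22 to 8.47 in the controls and 9.48 to 14.8 in the knockouts, and CCR9 measured 0 to 1.73 and 1.91 to 2.71. CCR8 and XCR1 were listed at 0 throughout, and the others under the filter overlapped between the groups.

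Of 29 ligand genes in the table, 11 passed the filter, 1 was higher and 0 were lower, beside 8.65% and 9.56% of all tested genes. CXCL6, a neutrophil chemokine that binds CXCR1 and CXCR2, measured 0, 0, 1.07 and 0.942 normalised counts in the controls and 55.4, 7.65, 14.9 and 9.84 in the knockouts (limma adjusted p = 0.00611). It passed the filter only through the knockouts (means of 0.504 and 21.9). Of the 8 fits with a library left out, it was tested in 7. CXCL10, a CXCR3 ligand, measured 3.22, 2.59, 2.15 and 18.8 in the controls and 19.2, 13.4, 12.2 and 59.0 in the knockouts. Its log2 fold change of 1.98 had an adjusted p of 0.0933 by limma, 0.00727 with the block and 0.0258 without control replicate 4. The CCR2 ligand CCL2 lay at a mean of 1792 ± 414 (SD, n = 4) in the controls and 993 ± 478 (SD, n = 4) in the knockouts (adjusted p = 0.171). The CCR1 ligands CCL23, CCL5, CCL3 and CCL3L1 had log2 fold changes of -1.10, -1.15, -0.46 and 1.07, and none passed (adjusted p of 0.0829, 0.347, 0.461 and 0.282). The CXCR2 ligands CXCL2, CXCL5 and CXCL8 were at 0.62, 0.22 and 0.15, and MIF, which also binds CXCR4, was at 0.35 (adjusted p of 0.434, 0.540, 0.902 and 0.229). CXCL12, the ligand of CXCR4, was listed at 0 in every library.

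Downstream of the receptors, 20 genes of G protein signaling were tested (median log2 fold change -0.09). Of these, 1 was higher and 2 were lower, beside 8.65% and 9.56% of all tested genes. ELMO1, an activator of the Rac pathway, rose from 1199 to 1683 normalised counts in the controls to 3516 to 4965 in the knockouts (log2 fold change 1.52, adjusted p by limma 4.09e-04). PIK3R5, a regulatory subunit of PI3Kγ, fell from 2522 to 4857 to a range of 739.8 to 1752 (log2 fold change -1.66, adjusted p = 0.00813). PREX1, a Rac exchange factor, had a log2 fold change of -1.09 (adjusted p = 0.0436). Its call was lost without control replicate 1, 2 or 4 or knockout replicate 1, 3 or 4 (adjusted p up to 0.103).
Of 15 genes that switch the receptors off, the kinase GRK6 was higher (log2 fold change 0.44, limma adjusted p = 0.0337), and the G protein regulator RGS19 (-1.45, adjusted p = 3.62e-04) and the ubiquitin ligase ITCH (-1.05, adjusted p = 0.00307) were lower. Over all tested genes 8.65% were higher and 9.56% lower. The GRK6 call was lost without any 1 control or without knockout replicate 2, 3 or 4 (adjusted p up to 0.0795). PREX1, RGS19 and ITCH, like the granule gene MMP9, lie on chromosome 20, where the median log2 fold change over 345 tested genes was -0.92, and the part of this shift in their values was not tested.

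Of 11 tested receptors for other chemoattractants, 4 were higher and 0 were lower (median log2 fold change 0.75), beside 8.65% and 9.56% of all tested genes. The values of these 4 did not overlap between groups, where 12.3% of all tested genes were higher and 13.0% lower without overlap. LTB4R2 was lower without overlap and was not called (log2 fold change -0.56, limma adjusted p = 0.153). FPR1 and FPR2, the formyl peptide receptors of phagocytes, were near 0 in the controls (at most 1.73 and 1.88 normalised counts) and reached 7.65 to 37.9 and 17.2 to 218 in the knockouts (adjusted p of 0.00419 and 0.00164 by limma). C5AR2, a receptor of complement C5a, measured 2.15 to 16.4 in the controls and 69.1 to 107 in the knockouts (log2 fold change 3.54, adjusted p = 0.00511). C3AR1, the C3a receptor, measured 90.6 to 289 and 402 to 1980.0 (log2 fold change 2.40, adjusted p = 0.0210), a call lost without control replicate 4 or knockout replicate 3 (0.0567 and 0.0624).

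**Figure D5:**
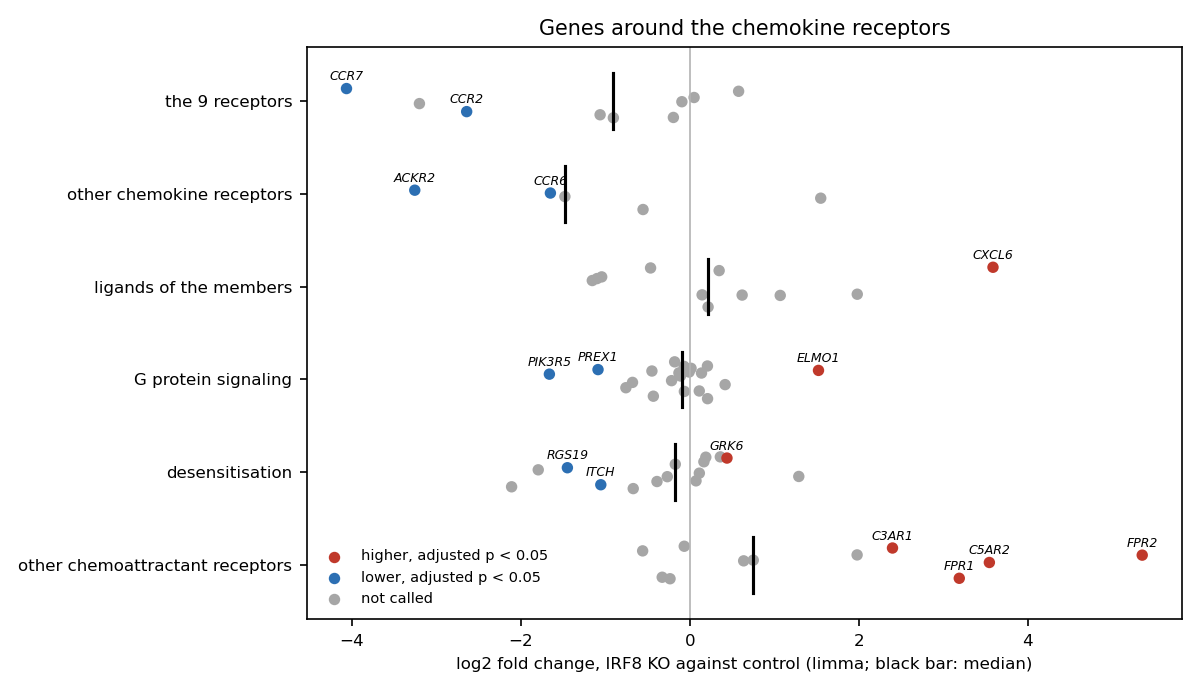
Log2 fold change (IRF8 knockout minus control) of every tested gene of the receptor, ligand, signaling and chemoattractant receptor lists, with the list's median as a bar and genes past an adjusted p of 0.05 named. The 9 receptors have a median of -0.90 and the 11 receptors for other chemoattractants a median of 0.75.

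Markers of blood lineages were read in the same libraries, beside 8.65% of all tested genes higher and 9.56% lower. Of 12 tested myeloid and monocyte markers 4 were higher (MPO, ITGAM, CD68 and FCGR1A) and 1 was lower (CD36), and the defining myeloid genes SPI1, CD33 and CSF1R were present in every library at 2101 normalised counts or more. The summed level of this list was 81960.0 to 94675 normalised counts in the controls and 112701 to 347001 in the knockouts, a separation that rests on the lysozyme gene LYZ (1734 to 14757 and 13767 to 248604, adjusted p = 0.0600). Without LYZ the sums overlapped, at 67203 to 92942 and 87517 to 98934. They then rested largely on FLT3, at 43847 to 66773 and 39931 to 52973 (limma adjusted p = 0.483). Within the list, MPO, ITGAM, CD68 and FCGR1A were each higher without overlap and CD36 was lower without overlap. Of 8 tested neutrophil markers 3 granule genes were higher (ELANE, PRTN3 and AZU1) and 1 was lower (MMP9), with sums of 22164 to 34560 and 92729 to 242743. These sums rested largely on the 3 higher genes. LTF and S100A12 had log2 fold changes of -2.05 and -2.52, and S100A8 and S100A9 of 1.99 and 3.14, none of them called. CAMP, MMP8, CEACAM8 and FCGR3B did not pass the filter. Dendritic cell markers were lower in 3 of 4 tested (CLEC10A, CD1C and IL3RA), with sums of 6022 to 7181 and 1143 to 2000. The sums rested largely on IL3RA, at 3398 to 5069 normalised counts in the controls and 837 to 1417 in the knockouts. BATF3 was tested and not called (log2 fold change 0.048). Under the filter, CLEC9A was 0 in every control and 3.197 to 15.7 in the knockouts. FCER1A, also under the filter, was at least 6.04 in the controls and 0 in every knockout. CLEC10A fell from 940.2 to 2123 normalised counts to 6.39 to 44.9. The neutrophil and dendritic cell sums did not overlap between the groups, like CCR2 and CCR7, and their part in the receptor values was not tested.
The calls of CD36 and MMP9 were lost without single libraries, CD36 without control replicate 1 or 3 or knockout replicate 2 or 4 (adjusted p up to 0.0712) and MMP9 without any 1 control or without knockout replicate 3 or 4 (adjusted p up to 0.107). The T cell marker CD3D, the B cell marker MS4A1 and the red cell marker HBB were at or near 0 in all libraries. Of the T and NK cell list 1 gene was tested and not called, and of the erythroid and platelet list KLF1 was higher among 2 tested. With the replicate block, 6 myeloid markers were higher and 2 lower, 5 neutrophil markers were higher and 2 lower, 1 T and NK cell marker was lower (NKG7), and 1 erythroid and platelet marker was lower. Over all tested genes the block gave 14.2% higher and 14.6% lower.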

How the data were processed

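RNA-Seq of MV4-11 cells was analysed in 4 control and 4 IRF8 KO libraries. Libraries had been prepared with a stranded mRNA kit, and reads were aligned with RNA-Star to GENCODE and counted with featureCounts. The authors deposited a signal per gene, the read count divided by the DESeq2 size factor of the library. The labels name both hg19 and hg38 without saying which was used. Columns headed WT were assigned to the control libraries by their number, and 0 columns remained unassigned. The deposited comparison table (fold changes, SE, Wald statistics, p-values) and the ChIP-Seq samples were not used here.

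From the smallest values the size of 1 read was found in each library, after which 100% of the values were whole (tolerance 0.01 reads). The main comparison used limma 3.58.1 in R 4.3.3 on log2(normalised count + 1) with a trended, robust prior variance, for genes with a mean of at least 10, called at an adjusted p below 0.05. It called 2387 of 13110 genes, and edgeR 4.0.16 on the recovered reads called 2333. At the study's thresholds (unadjusted p below 0.01, at least 2-fold) limma called 1429. Replicate numbers were taken from the labels, which do not say what they mark. Deviations from the group means of same-numbered libraries correlated across genes at 0.37, 0.48, 0.45 and 0.50, so the numbers were taken as pairs for the blocked fit. Differently numbered libraries within replicates 1 and 3 (0.47 and 0.41) and within replicates 2 and 4 (0.40 and 0.41) correlated about as much, and the other pairings were negative, so these correlations do not separate a pairing by number from 2 sets of replicates. Permutation tests were exact and two-sided.

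The alternatives were the pseudocount, the filter, the scaling, limma without trend, edgeR, DESeq2 1.42.0, the block, leaving out each library, and subsets of replicates. Replicates 1 and 3 alone and 2 and 4 alone were added after seeing the data. The 9 receptors and all gene lists were chosen with earlier results of these data known. Named genes are the receptors, IRF8, the tested receptors and ligands, and up to 4 called genes with the largest change in each other list. ACKR3, ACKR4, CCR8, CCR9, XCR1, CXCL12, LTB4R2, genes next to the receptor cluster and markers that were not called were added after their values were seen. Some genes of the rule are not reported here. The RefSeq table gives only gene spans, so levels of different receptors were not compared. The procedure was tested on simulated data.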

Additional observations from a re-analysis of the deposited data

Results flagged for a closer look

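In 18 groups of 4 values (9 receptors, 2 groups), the gap between the most extreme library and its nearest neighbour was compared with the range of the group at Dixon's 95% critical value, which chance passes in about 1 group of 20. CCR1 in knockout replicate 2 measured 3191 normalised counts, a ratio of 0.946, far above the other 3 knockout libraries, which lay between 1709 and 1789. CXCR1 in knockout replicate 1 measured 69.3 normalised counts, a ratio of 0.873, above 24.9 to 30.5 in the other knockouts, and rested on 65 reads. CXCR2 was also highest there, at 1207.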

How the results depend on the processing

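CCR7 was called with each library left out, and its direction held under every alternative that tested it. Calls among the receptors numbered 2, and 1 when a mean of at least 100 was required (6 receptors tested), 4 with DESeq2, 5 with the replicate block, 1 with knockout replicates 1 and 2 only, 4 with knockout replicates 3 and 4 only, 4 among replicates 1 and 3, and 1 to 3 with single libraries left out. Over all genes, the 2387 calls became 1908 of 10986 at a mean of at least 100, 3402 with DESeq2 and 3769 with the block. Knockout replicates 1 and 2 only gave 1223, and knockout replicates 3 and 4 only gave 1912. Replicates 1 and 3 gave 2771 of 12970, and leaving out single libraries gave 1668 to 2459. In the lists of other receptors, ligands, G protein signaling, receptor switch-off and other chemoattractant receptors, 13 of 62 tested genes were called, beside 2387 of 13110 over all tested genes. These 13 calls, which leave out the lineage markers, became 8 at a mean of at least 100 and 6 with knockout replicates 1 and 2 only. CCR1 crossed the threshold at a log2 fold change of -0.92 with upper quartile scaling, -0.89 with quantile normalisation, -0.90 with DESeq2 and with the replicate block, -1.14 with knockout replicates 3 and 4 only and -1.49 among replicates 1 and 3 (left-out range -1.12 to -0.75). CXCR3 crossed it at -3.30 with DESeq2, -3.20 with the replicate block, -3.31 among replicates 1 and 3 and -3.08 among replicates 2 and 4, and CX3CR1 at -1.06 with the replicate block and -1.83 with knockout replicates 3 and 4 only. CCR2 lost its call at -1.85 with knockout replicates 1 and 2 only and -1.67 among replicates 2 and 4 (left-out range -3.18 to -2.29). The sign turned for CXCR1 (-0.18 with knockout replicates 3 and 4 only, -0.092 among replicates 2 and 4, left-out range -0.26 to 0.22), CXCR2 (0.11 among replicates 1 and 3), CXCR4 (0.14 among replicates 1 and 3, left-out range -0.19 to 0.063), CXCL8 (-0.15 with knockout replicates 3 and 4 only, left-out range -0.32 to 0.41), CCL3 (0.17 among replicates 1 and 3) and CCR3 (left-out range -1.02 to 0.069). Subsets leave fewer libraries, and the cause of the other changes was not tested. The block changed no other call among the 9 receptors. Outside them, calls printed above were lost with knockout replicates 1 and 2 only for CCR6, PIK3R5, PREX1, GRK6, C5AR2, C3AR1, CD36, MMP9 and KLF1 (adjusted p 0.0595 to 0.258), with knockout replicates 3 and 4 only for IRF8, CCR6, PREX1, GRK6 and CD36 (0.0562 to 0.122), among replicates 1 and 3 for PREX1, GRK6 and MMP9 (0.0601 to 0.108), among replicates 2 and 4 for IRF8, CCR6 (log2 fold change -0.55), GRK6, MMP9 and KLF1 (0.0574 to 0.252), with quantile normalisation for PREX1 (0.0508) and with edgeR for MMP9 (0.0574). Depth limits CCR7, CXCR1, CXCR3 and CXCL6, which rest on under 100 reads in most libraries.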
